A study of Monascus purpureus with 9 samples.

Results

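The Swd3 knockout of Monascus purpureus was compared directly with the Set1 knockout. M. purpureus is a mould cultivated for the red, orange and yellow azaphilone pigments it makes. The comparison took the 3 Swd3 knockout and the 3 Set1 knockout libraries, 6 of the 9 RNA-seq libraries of the series, and every gene row with at least 1 FPKM in at least 3 of these 6 libraries. FPKM counts fragments per transcript length and per library size. This kept 9111 of 9869 rows, 8556 of them named gene_ and 555 named NewGene_. The other 3 libraries came from the wild type (WT) and entered no test. Per the labels, all 3 groups are mycelium cultured for 2 days in PDB medium, and each group differs from the others by genotype only (WT, Set1 knockout, Swd3 knockout). The parental strain, the deletion alleles and the number of independent transformants behind each knockout were not stated in the labels. The subunit lost and the history of a single strain therefore cannot be told apart.

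Set1 and Swd3 belong to COMPASS, which adds methyl groups to a lysine of histone H3 near the start of active genes. Set1 carries the catalytic SET domain. Swd3 is a WD-repeat protein that, in budding yeast, holds the core of the complex together, and yeast lacking it loses most of this methylation. In filamentous fungi the complex is known for its part in growth, conidiation and the control of secondary metabolite clusters. The table gives every row a number and no gene name, and 0 of its rows matched the 9270 entries of the reference gene list of M. purpureus. Transcripts of both deleted genes and of the pigment, citrinin and conidiation genes could thus not be identified here. Rows are referred to as genes although their products are not known, and 4 of them are named by their identifiers.

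With FPKM values alone, the sequencing depth is unknown. The summed FPKM was 708044 to 712844 in Swd3 knockout libraries and 722396 to 729434 in Set1 knockout libraries, so the groups did not overlap. The median row stood at 12.6 to 13.9 FPKM in Swd3 knockouts and 12.5 to 13.2 FPKM in Set1 knockouts. The first principal component of the 6 libraries held 42.4% of the variance and separated the genotypes. The second held 27.3% and ran within them. On it, Swd3 knockout library 1 (10.3) and Set1 knockout library 1 (10.6) lay together at one end and Swd3 knockout library 3 (-12.8) at the other. Counts are therefore also given without both first libraries, a choice made after this was seen.

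The strains lacking Swd3 and Set1 had closely similar transcriptomes. The median gene differed by 0.140 to 0.182 on the log2(FPKM + 1) scale, 1.1 to 1.13-fold, between a Swd3 and a Set1 knockout library (9 pairs). Between Set1 knockout libraries it differed by 0.081 to 0.113, and between Swd3 knockout libraries by 0.106 to 0.163 (3 pairs each). The largest distance between Swd3 knockout libraries thus exceeded the median distance between knockouts, which was 0.144. A WT library lay much farther away, at 0.580 to 0.616 from Set1 knockouts and 0.578 to 0.627 from Swd3 knockouts. Neither knockout was the nearer to WT by this measure, with medians of 0.595 for Set1 and 0.594 for Swd3. The median SD between replicates was 0.09 log2 units in Set1 and 0.11 in Swd3 knockouts (n = 3 each).

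**Figure D1:**
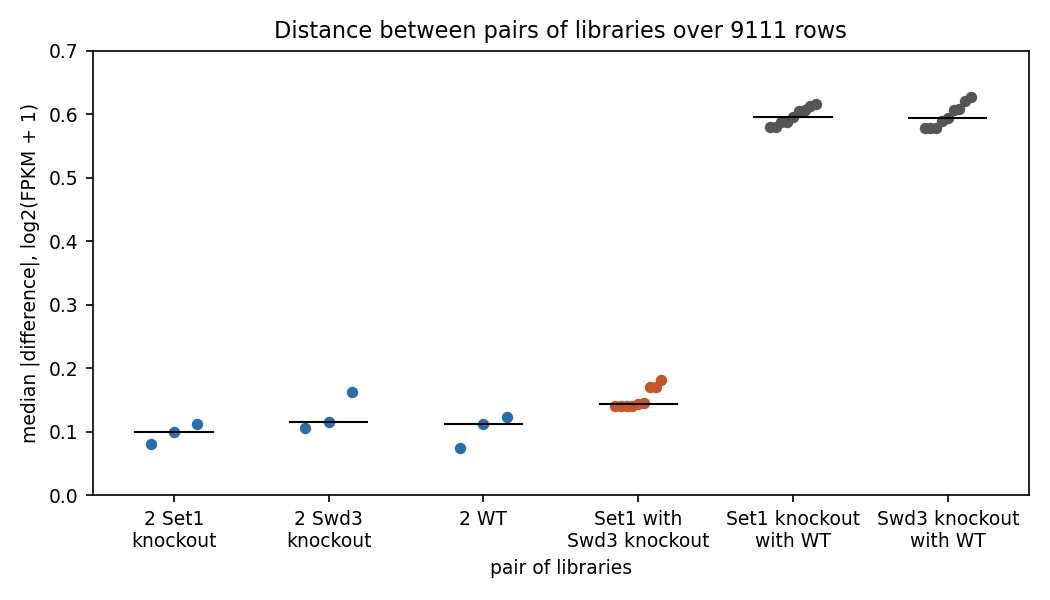
Median absolute difference in log2(FPKM + 1) over the 9111 tested rows for each pair of libraries, 1 point per pair, with a line at the median of each kind of pair. Pairs of different knockouts lie at 0.140 to 0.182, just above most pairs of the same genotype and far below the pairs with WT.

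Between the knockouts, 1076 genes differed, 566 higher and 510 lower in the Swd3 knockout (limma, adjusted p under 0.05). This is 11.8% of the genes tested, with 6.21% higher and 5.60% lower. Of these genes, 1070 had no overlap between the 3 Swd3 and the 3 Set1 knockout values, whereas 28.3% of all tested genes had none. Most differences were small. The median absolute difference among the 1076 genes was 1.27-fold, and 95% of them lay under 1.66-fold. At least 1.5-fold differences numbered 144 (1.58% of genes tested) and at least 2-fold differences 12 (0.132%). The count of 1076 fell to 612 without Swd3 knockout library 2 and to 613 without Set1 knockout library 3. Without Set1 knockout library 2, the 566 higher genes fell to 355. Without both first libraries, 1145 genes differed, 538 higher and 607 lower. The split between both directions moved with the scaling, to 719 higher and 393 lower after bringing all libraries to one summed FPKM, and it turned to 570 higher and 678 lower with the median of ratios and to 661 and 670 with quantile normalization.

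A gene that did not pass is not thereby shown to be alike in both strains, so the interval of the difference was read instead. For 8345 genes, 91.6% of those tested, the 95% interval of the Swd3 minus Set1 difference (limma, not adjusted over genes) lay within 1.5-fold in either direction. For 9054 genes, 99.4%, it lay within 2-fold. The first number includes 701 genes that passed the test with a difference bounded in this way. It depended on the pseudocount, falling to 7972 of 9111 genes when 0.5 and to 7573 when 0.1 was added in place of 1. At the other end, the whole interval lay beyond 1.5-fold for 56 genes and beyond 2-fold for 9. Among the 8035 genes that did not pass, 391 had an interval that reached past 1.5-fold, and for these the data leave a larger difference undecided. Their median level was 2.48 FPKM, and that of all genes tested was 15.2 FPKM.

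**Figure D2:**
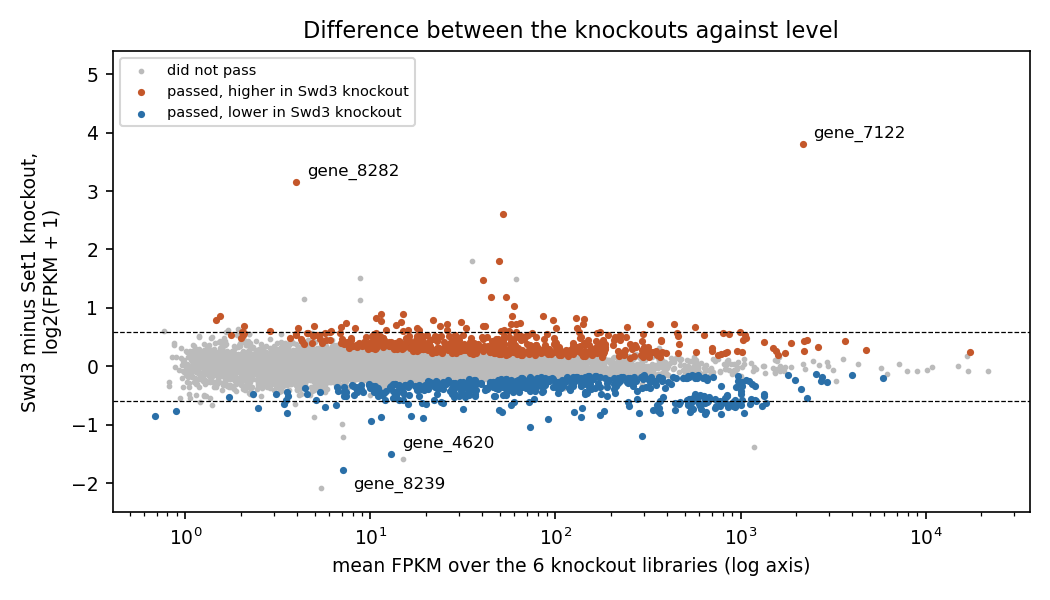
Swd3 minus Set1 knockout difference on the log2(FPKM + 1) scale (vertical axis) against the mean FPKM of the 6 knockout libraries (horizontal log axis), 1 point per tested gene, with dashed lines at 1.5-fold. The 566 genes that passed above 0 and the 510 below 0 are coloured, the 4 named genes are labelled, and a cloud of genes between 126 and 1371 FPKM lies below the lower line.

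Gene_7122 showed the largest difference on the log2(FPKM + 1) scale, though not with a pseudocount of 0.5 or 0.1, and was far higher in the Swd3 knockout than in the Set1 knockout or WT. It stood at 3936, 4127 and 4079 FPKM in the 3 Swd3 knockout libraries and at 284, 302 and 285 FPKM in the 3 Set1 knockout libraries. WT libraries had 28.5, 30.1 and 30.6 FPKM. The 3 genotypes did not overlap, and both knockouts were above WT. The Swd3 knockout mean was 13.9 times the Set1 knockout mean and 136 times the WT mean, while the Set1 knockout mean was 9.78 times that of WT. The Swd3 minus Set1 difference was 3.80 on the log2(FPKM + 1) scale (SE 0.04, 95% interval 3.70 to 3.89, limma adjusted p = 2.42e-14). Together, the 59 genes that passed at 1.5-fold or more in this direction took 1.40 ± 0.0127% of the summed FPKM in Swd3 and 0.529 ± 0.00434% in Set1 knockouts (SD, n = 3), and gene_7122 alone made up 61.3% of this gain in FPKM. The 59 genes were picked from these same libraries as higher in the Swd3 knockout, so the direction of the gain was set beforehand. WT libraries, which had no part in the choice, had 0.555 to 0.570%. This lay above the Set1 knockout libraries (0.526 to 0.534%) and below the Swd3 knockout libraries (1.39 to 1.41%).

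Gene_8282 was at 0 in each of the 3 Set1 knockout libraries. Its Swd3 knockout values were 9.94, 7.20 and 6.75 FPKM, and its WT values were 17.9, 15.2 and 19.8 FPKM. The 3 genotypes did not overlap here either, with the Swd3 knockout at 0.451 times the WT mean. A value of exactly 0 may be an estimate that failed, so no fold against the Set1 knockout is given. The difference on the log2(FPKM + 1) scale was 3.15 (SE 0.15, limma adjusted p = 1.53e-07), a size set by the pseudocount, since it was 4.06 when 0.5 and 6.31 when 0.1 was added in place of 1. The table does not say whether this gene is the deleted one.

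Gene_8239 was low in the Swd3 knockout alone. Its values were 2.76, 2.31 and 2.92 FPKM in Swd3 knockouts, 12.6, 10.7 and 11.1 FPKM in Set1 knockouts and 11.8, 10.2 and 10.9 FPKM in WT. The Set1 knockout and WT values overlapped, and the Swd3 knockout values lay below both. The Set1 knockout mean was 4.31 times the Swd3 knockout mean, a difference of -1.77 on the log2(FPKM + 1) scale (SE 0.11, limma adjusted p = 8.08e-07).

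Gene_4620 was lower in the Swd3 than in the Set1 knockout and far lower in both than in WT. Swd3 knockout libraries had 5.77, 6.05 and 7.06 FPKM, Set1 knockout libraries 20.9, 18.9 and 19.1 FPKM, and WT libraries 130, 128 and 131 FPKM. No values of different genotypes overlapped. The difference between the knockouts was -1.50 on the log2(FPKM + 1) scale (SE 0.10, limma adjusted p = 8.08e-07), with the Set1 knockout mean at 3.12 times the Swd3 knockout mean.

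The other 8 genes that differed at least 2-fold comprised 6 higher and 2 lower in the Swd3 knockout. The third largest gain went stepwise from WT (2.70, 2.46 and 3.67 FPKM) to the Set1 knockout (13.3, 14.0 and 14.5 FPKM) and the Swd3 knockout (95.3, 89.6 and 86.3 FPKM). The fourth moved to opposite sides of WT, with Set1 knockouts at 23.5, 20.7 and 20.4 FPKM, WT at 38.3, 32.6 and 33.1 FPKM and Swd3 knockouts at 73.3, 79.4 and 78.6 FPKM. Its groups did not overlap. The fifth was higher in the Swd3 knockout than in both other genotypes, at 63.9, 62.0 and 54.4 FPKM, against 22.0, 20.6 and 20.2 FPKM in Set1 knockouts and 21.8, 18.0 and 22.1 FPKM in WT, where the latter groups overlapped. The remaining 3 higher genes had Swd3 to Set1 ratios of 2.31, 2.30 and 2.09, with WT below both knockouts. Of the 2 lower genes, one was below WT in both knockouts, with means of 222 FPKM in WT, 98.5 FPKM in Set1 and 47.3 FPKM in Swd3 knockouts. The other was above WT in both, with means of 16.3, 406 and 177 FPKM in the same order. Thus 10 of the 12 genes had the Set1 knockout mean nearer to WT. All 12 passed in the same direction under each of the 17 alternative settings. The size limit fell in a gap, with the nearest gene that passed below it at 0.90 among the higher and -0.93 among the lower genes, and the nearest above it at 1.04 and -1.04 log2 units.

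**Figure D3:**
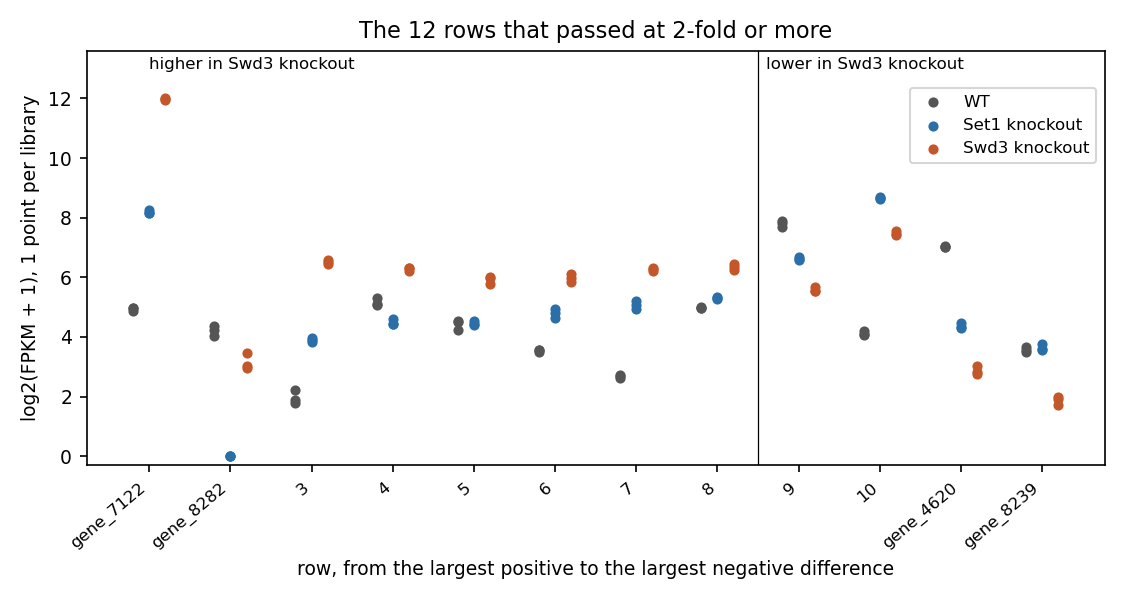
Log2(FPKM + 1) in each of the 9 libraries, 1 point per library, for the 12 genes that passed at 2-fold or more, ordered from the largest positive to the largest negative Swd3 minus Set1 difference. For 7 genes the WT mean lies below both knockouts, for 3 above both and for 2 between them.

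Abundant genes passed the test more often than low ones. Classes were set by the mean FPKM of the 6 libraries. Among 1774 genes under 5 FPKM, 1.97% passed, with 22 higher and 13 lower in the Swd3 knockout. At 5 to 20 FPKM 6.19% of 3505 genes passed (142 higher and 75 lower), and at 20 to 100 FPKM 15.7% of 2819 genes passed (252 higher and 191 lower). At 100 FPKM and over 37.6% of 1013 genes passed, with 150 higher and 231 lower. The precision changed along with the level. The median SE was 0.142 log2 units under 5 FPKM and 0.052 at 100 FPKM and over, while the median absolute difference of all genes was 0.12 and 0.14. The shares that passed therefore do not show that low genes differed less. Leaving out any one library other than Swd3 knockout library 3 moved at least 1 count of the classes under 100 FPKM by over 1.5 times. Over these settings the higher and lower genes numbered 8 to 24 and 4 to 31 under 5 FPKM, 58 to 191 and 31 to 118 at 5 to 20 FPKM, and 131 to 309 and 94 to 277 at 20 to 100 FPKM. The balance of higher and lower genes was not stable below 100 FPKM. Without Swd3 knockout library 1 it turned to 18 higher and 31 lower under 5 FPKM and to 234 and 277 at 20 to 100 FPKM. Without both first libraries these classes had 21 and 23 and then 225 and 232. At 20 to 100 FPKM scaling by the median of ratios gave 260 higher and 284 lower. Quantile normalization gave 148 and 153 at 5 to 20 FPKM and 265 and 276 at 20 to 100 FPKM. At 100 FPKM and over, lower genes outnumbered higher ones with each library left out in turn (103 to 160 higher, 167 to 262 lower). They were near even at a common summed FPKM (174 higher and 189 lower), and quantile normalization turned the balance to 226 higher and 219 lower.

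**Figure D4:**
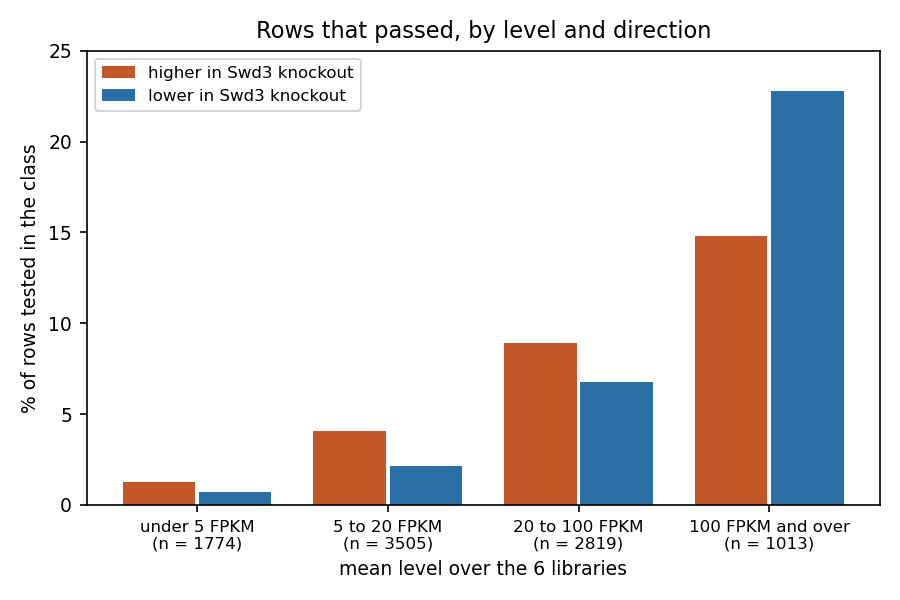
Share of tested genes that passed (vertical axis, %) in 4 classes of mean FPKM, with bars for genes higher and lower in the Swd3 knockout. The share rises with level in both directions, and the lower bar (22.8%) is above the higher bar (14.8%) at 100 FPKM and over. The balance of the bars turned under other scalings or without a library in each of the classes under 100 FPKM and, after quantile normalization, in the most abundant one.

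At 100 FPKM and over, 59 genes were at least 1.5-fold lower in the Swd3 than in the Set1 knockout and 12 were at least 1.5-fold higher. The class and the size limit that set these 59 genes apart were joined after the values were seen, so what follows describes them. Their differences had a median of -0.68 log2 units, quartiles of -0.74 and -0.62 and a range of -1.19 to -0.59. The size limit left out smaller differences, so it partly set this spread. All 59 were gene_ rows, at mean levels of 126 to 1371 FPKM. Together they took 6.05, 6.20 and 6.23% of the summed FPKM in the 3 Set1 knockout libraries, and 3.93, 3.88 and 4.02% in the 3 Swd3 knockout libraries. WT libraries, which had no part in the choice, had 3.92, 3.96 and 3.95%. The Swd3 knockout and WT shares overlapped, and the Set1 knockout shares lay above both.

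Single genes of this group mostly showed the same order. Over the 59 genes, the Swd3 minus WT difference had a median of 0.00 log2 units with quartiles of -0.10 and 0.10, and the Set1 minus WT difference had a median of 0.67 with quartiles of 0.58 and 0.78. These differences share the WT libraries. Over all genes tested, the 2 medians were -0.05 and -0.06. The Swd3 knockout mean was within 1.5-fold of WT for 54 of the 59 genes, against 15 for the Set1 knockout. The same count was not made over all genes tested. All 59 were chosen for knockouts at least 1.5-fold apart, so these counts are tied to each other. The Swd3 knockout was the nearer to WT for 56 of the 59 genes, and over all genes tested the Set1 knockout was the nearer for 50.8%. The exceptions were wide, with Swd3 minus WT differences from -1.54 to 3.36. The number of genes with a fall of this size depended on the scaling, most on quantile normalization. At a common summed FPKM 46 genes were at least 1.5-fold lower and 18 higher, and with the median of ratios 67 and 10. After quantile normalization 20 genes were at least 1.5-fold lower and 22 at least 1.5-fold higher, although all 59 genes still passed as lower, at a median of -0.51 log2 units.

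**Figure D5:**
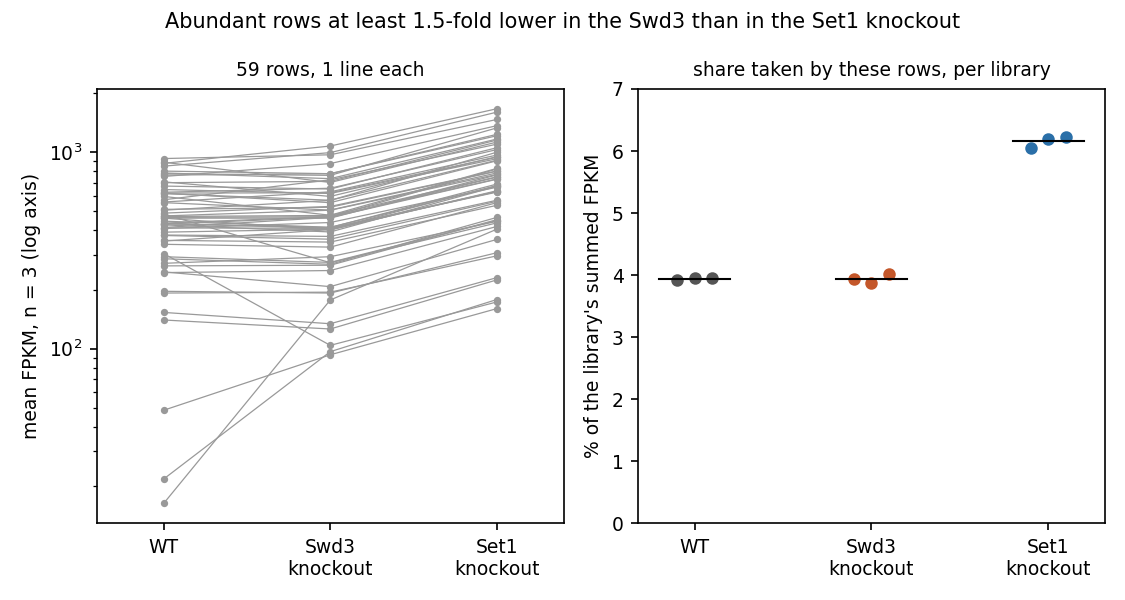
The 59 abundant genes (mean of 100 FPKM or more) that were at least 1.5-fold lower in the Swd3 than in the Set1 knockout: mean FPKM per genotype with 1 line per gene (left, log axis, n = 3) and their share of each library's summed FPKM (right, %, 1 point per library, line at the mean). Swd3 knockout libraries (3.88 to 4.02%) overlap those of WT (3.92 to 3.96%), and Set1 knockout libraries lie above both (6.05 to 6.23%).

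The genes at least 1.5-fold higher in the Swd3 knockout were less abundant and stood in another order. There were 59 of these too, at a median of 40.5 FPKM against 443 FPKM for all 85 genes at least 1.5-fold lower. Their median level was 45.9 to 54.5 FPKM in Swd3 knockout libraries, 20.4 to 22.7 FPKM in Set1 knockout libraries and 10.3 to 10.9 FPKM in WT libraries. By their share of the summed FPKM, given above, WT instead lay above the Set1 knockout. For 40 of them WT lay below both knockouts, for 11 between them and for 8 above both. Over all 9111 genes tested these positions held for 4051, 546 and 4514. The Set1 knockout was the nearer to WT for 48 of the 59 higher genes (81.4%) and for 12 of the 85 lower genes (14.1%). In both directions the larger differences thus mostly went with the knockout of the higher level being farther from WT. Among all genes that passed this was weaker, with the Set1 knockout nearer for 57.4% of the 566 higher and 46.1% of the 510 lower genes. Both directions pooled gave 560 of 1076 (52.0%), a share in which opposite tendencies offset each other. WT lay between the knockouts for 17.1% of the 1076 and for 5.99% of all genes tested, where its place is also set by how small most differences are.

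Few rows named NewGene_ differed between the knockouts, and the table does not say how these rows arose. Of the 555 tested, 14 were higher and 6 lower in the Swd3 knockout, together 3.6% against 11.8% of all rows. Their median level was 3.07 FPKM, and they had a median SE of 0.141 log2 units against 0.093 for all rows. Within classes of level the shares were closer. Under 5 FPKM 2.65% of 378 NewGene_ rows and 1.79% of 1396 gene_ rows passed, and at 5 to 20 FPKM 4.64% of 151 and 6.26% of 3354 passed. Their median difference was 0.036 log2 units, against 0.020 for all rows. The 20 NewGene_ rows fell to 11 without Swd3 knockout library 2 and to 12 without Set1 knockout library 3, and rose to 31 without both first libraries.

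After a gene that differed, the next number differed in the same direction more often than did gene_ rows in all. The sources used here do not say how the numbers were given. Of 458 genes that were higher in the Swd3 knockout and whose next number was tested, 75 (16.4%) were followed by another higher gene, while 6.45% of all gene_ rows were higher. Of 437 lower genes, 62 (14.2%) were followed by a lower one, against 5.89% of all gene_ rows. Next genes that differed in the opposite direction were not counted. The shares over all gene_ rows were not matched for level, although abundant genes passed more often. Runs of at least 3 consecutive numbers that all passed in the same direction numbered 17 and held 59 genes, 36 higher in 10 runs and 23 lower in 7 runs. The longest run had 5 genes, all higher in the Swd3 knockout by 0.30 to 0.54 log2 units, at mean levels of 18.4 to 224 FPKM. Another run had 4 genes, each higher by 0.70 to 0.74 log2 units at 41.4 to 325 FPKM. It was the only one of the 17 runs in which every gene differed at least 1.5-fold. Of the 59 abundant genes described above, 16 had a next or previous number that was also lower in the Swd3 knockout, and 2 had one within the group of 59. The same count was not made over all genes, so no clustering of this group is read from it. The runs held 29 genes without Swd3 knockout library 2 and 36 without Set1 knockout library 3.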

How the data were processed

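Groups and replicate numbers came from the sample titles. The authors deposited 1 table of FPKM values, with a column per library named like its title. FastQC, HISAT2 and StringTie were used, per the submitters' processing notes; genome build, annotation, settings and strand option were not given in the sources used here. Values reach down to 1e-06, so no read counts could be recovered and no count test was run. Separate cultures are not named for the libraries of a group, so the p-values reflect library-to-library spread that may be technical only.

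A linear model with a mean per knockout was fitted to log2(FPKM + 1) of the 6 knockout libraries, without further scaling, using limma 3.58.1 under R 4.3.3. Variances were moderated by empirical Bayes along a trend with intensity. P-values are two-sided and Benjamini-Hochberg adjusted over 9111 rows, with a threshold of 0.05. Fold sizes are on this scale, which understates differences of low genes. The script was tested on simulated data. Named genes are the 2 largest differences in each direction that passed, showed no overlap of values and reached a mean of at least 5 FPKM in the higher group. Members, lists and rules were chosen with earlier results of these data known. Lists of COMPASS subunits, pigment and citrinin cluster genes and conidiation regulators matched 0 rows. Alternatives covered the pseudocount, filter, scaling, libraries fitted, replicate block, robust moderation and each library left out.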

Additional observations from a re-analysis of the deposited data

How the results depend on the processing

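All 4 named genes kept their direction and passed under each of 17 alternatives. The counts of differences of at least 1.5-fold (114 to 178) and at least 2-fold (12 to 17) stayed near their reported values. So did the distance between knockouts (0.137 to 0.158, 14 alternatives). Intervals within 1.5-fold numbered 6945 of 7383 genes with the filter at 5 FPKM and 8881 of 9812 without a filter. Over the same 9111 genes they fell from 8345 to 7573 with a pseudocount of 0.1. Leaving out 1 library gave 612 to 1237 differing genes (305 to 675 higher, 296 to 688 lower), 11 to 27 NewGene_ rows, 312 to 657 differing genes with the Set1 knockout nearer to WT and 29 to 68 genes in runs. With the replicate number as a block, 1830 genes differed (967 higher, 863 lower), 54 NewGene_ rows among them; 967 had the Set1 knockout nearer to WT and 135 stood in runs. The numbers were not taken as a pairing, because the labels name no shared batch and 1 of the 3 same-number pairs had deviations correlated at only 0.04 (the others at 0.30 and 0.24). Of 6 libraries, 4 correlated best with their own number. Quantile normalization gave 22 higher and 20 lower abundant genes at 1.5-fold, and leaving out both first libraries, an alternative added after seeing the data, gave 31 NewGene_ rows; the cause was not tested. Unknown depth leaves low genes the least resolved.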

Other observations

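Few rows were listed at 0 throughout one knockout alone, and a listed 0 does not show that a transcript was absent. Of all 9869 rows, gene_8282 was the single one at 0 in every Set1 knockout library and above 0 in every Swd3 knockout library. The reverse held for 1 row, a NewGene_ row at a mean of 0.181 FPKM in the Set1 knockout. A further 57 rows were listed at 0 in all 6 knockout libraries.

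A small number of genes varied widely between libraries of one strain. Of the genes that differed at least 2-fold in their means, 9 did not pass (5 higher and 4 lower in the Swd3 knockout, limma adjusted p from 0.055 to 0.532). They stood at 4.36 to 1176 FPKM, with SE of 0.62 to 1.36 log2 units, and the values of both knockouts overlapped for 8 of them.

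The 100 most abundant genes, at 963 FPKM or more, included 52 that differed between the knockouts, 19 higher and 33 lower in the Swd3 knockout. Over all genes tested 11.8% differed, and among those at 100 FPKM and over 37.6%. The balance turned with the scaling, to 29 higher and 28 lower after quantile normalization. Of the 52, 9 differed at least 1.5-fold, and the largest differences were 3.80 and -0.80 log2 units.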
